A study of Mus musculus with 43 samples.

Results

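The expression of Txnip and of 4 genes tied to it in glucose sensing (Arrdc4, Gm15441, Mlxip and Mlxipl) was followed in mouse colon organoids and colon fibroblasts treated with the multi-kinase inhibitor regorafenib or comparison drugs. The 5 genes were found by their symbols among the 52636 genes of the organoid and fibroblast expression tables. The genes were selected on measured values, since Txnip was chosen by its lower level in several drug conditions of both cultures, so the drug against vehicle differences of the 5 genes are given as a description, without a test. Their levels between genotypes, between drug doses and with a second drug added were tested.

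Organoid lines came from the colon of adult, tamoxifen-injected Vil-cre/ERT2/Apc wt/wt mice (colonoids, lines M41, M40 and M1) or from animals that were Vil-cre/ERT2/Apc flox/flox (tumoroids, lines F11, M3 and M14). The villin promoter drives the tamoxifen-dependent Cre recombinase in intestinal epithelium, and both genotypes carried the transgene and received tamoxifen. Recombination of the Apc flox allele removes a brake on Wnt signaling. Each line, grown from 1 mouse, was treated for 6 days with DMSO vehicle (Ve), 4 µM regorafenib (R4), 8 µM regorafenib (R8) or 1 µM 5-fluorouracil (5-FU, an inhibitor of DNA synthesis), which gave 24 libraries in 8 groups of 3. Colon fibroblasts of wild-type C57B/6 mice (lines M3, M3(2), M1(2) and M11) were treated for 7 days with Ve, R4, 10 µM regorafenib (R10), 1 µM autogramin-2 (A1, an autophagy inhibitor) or 4 µM regorafenib with 1 µM autogramin-2 (R4A1). This gave 19 libraries, with 4 lines in each group but R10, for which M11 was not analysed here. Levels are CP20M, the reads of a gene scaled to 20000000 reads per library. The study's captions define CP20M per kilobase of transcript. The deposited values fall on steps of whole reads, so they were taken here as not divided by gene length. The 2 cultures were scaled in separate tables, so no test was run between them.

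The organoid libraries held 512577 to 22370021 reads (median 15697936) and the fibroblast libraries 7949965 to 12825919 (median 9039204). The shallowest was the colonoid R4 library of line M41, in which Txnip rested on 60 reads, so the fitted R4 differences of Txnip, Gm15441, Arrdc4 and Mlxip in organoids are also given without it, and listed genes whose R4 call changes without it are named. All 7 epithelial markers averaged at least 200 CP20M in every colonoid group and 6 of 7 in every tumoroid group, while the summed fibroblast markers stayed at 12 to 123 CP20M. All 7 fibroblast markers reached that level in the fibroblasts, where the epithelial markers summed to 33 to 309 CP20M. In bulk cultures such as these, fewer cells of a type and less RNA per cell cannot be told apart.

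Txnip encodes thioredoxin-interacting protein, an alpha-arrestin that binds thioredoxin and lowers glucose uptake by drawing glucose transporters into the cell. Its transcription follows glucose: when glucose 6-phosphate builds up, the basic helix-loop-helix factor MondoA (gene Mlxip) enters the nucleus with its partner Mlx and binds carbohydrate response elements, which are paired E-box-like hexamers set 5 bases apart. ChREBP (gene Mlxipl) is the related glucose sensor of liver, fat and intestine. Arrdc4 encodes another alpha-arrestin, is a MondoA target as well and also restrains glucose uptake. Gm15441 is a non-coding RNA transcribed from the strand opposite to Txnip.

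In GRCm38, Txnip (ENSMUSG00000038393) lies on the plus strand of chromosome 3 from 96557957 to 96561883 with 3123 exon bases. Gm15441 (ENSMUSG00000074398) spans 96555765 to 96566801 on the minus strand and covers the whole of Txnip. Arrdc4 (ENSMUSG00000042659) is on chromosome 7 from 68736995 to 68749241, minus strand. Mlxip (ENSMUSG00000038342) and Mlxipl (ENSMUSG00000005373) are both on the plus strand of chromosome 5, from 123394798 to 123457932 and from 135089890 to 135138382.

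The promoters of the 2 alpha-arrestin genes are shown because they are where glucose-responsive transcription of both genes is known to be set. Each is the 250 bases before the RefSeq start site (build GRCm38.p6), 5′ to 3′ on the strand of the gene, with capitals for the paired hexamers in Txnip and for the full CACGTG in Arrdc4. Other single hexamers with 1 mismatch are left in lower case.
Txnip, chr3:96557707-96557956, plus strand: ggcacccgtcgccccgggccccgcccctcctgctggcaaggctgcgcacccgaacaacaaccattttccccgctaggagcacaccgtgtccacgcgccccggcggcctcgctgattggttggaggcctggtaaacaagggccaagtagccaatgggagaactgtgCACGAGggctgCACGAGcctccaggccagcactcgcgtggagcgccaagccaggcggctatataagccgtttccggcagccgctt
Arrdc4, chr7:68749239-68749488, minus strand: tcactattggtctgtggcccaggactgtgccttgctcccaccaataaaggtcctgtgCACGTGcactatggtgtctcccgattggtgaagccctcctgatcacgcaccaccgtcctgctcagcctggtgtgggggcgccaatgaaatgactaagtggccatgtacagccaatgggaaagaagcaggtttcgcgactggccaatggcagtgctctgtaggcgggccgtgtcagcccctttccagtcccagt

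The Txnip sequence held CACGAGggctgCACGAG, 85 to 69 bases before the start site (chr3:96557872-96557888). It was found as a pair of hexamers that each match CACGTG with up to 1 mismatch, 5 bases apart. Such a pair occurred in 136 of 32851 RefSeq promoters of 300 bases (250 before and 50 after the start), a share of 0.414%. The Arrdc4 window held no such pair. It held the full CACGTG hexamer 193 to 188 bases before the start, as did 7.15% of promoters, and 6 CCAAT boxes over both strands, where 37.4% of promoters held any and 1.06% held at least 4. The Txnip window held 2 CCAAT boxes and no full CACGTG. The promoter of Mlxip held neither the pair nor CACGTG, and 1 of the 2 promoters listed for Mlxipl held a single CACGTG. The motifs do not overlap one another in these windows, and the matches are a description of the letters, not of binding.

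In organoids, the level of Txnip was lower than in vehicle under each of the 3 treatments in all 6 lines, and lowest under R8. In vehicle, colonoid lines M41, M40 and M1 held 10926, 11141 and 11267 CP20M. Tumoroid lines F11, M3 and M14 held 10880, 10508 and 12548 CP20M in vehicle. The 6 vehicle libraries lay close together, and the colonoid group (11111 ± 172, SD, n = 3) fell within the range of the tumoroid group (11312 ± 1086, SD, n = 3).

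Under R4, Txnip was at 2342, 4337 and 4898 CP20M in colonoid lines M41, M40 and M1. The tumoroid lines F11, M3 and M14 held 4223, 5907 and 4626 CP20M under R4. All 6 R4 values lay below all 6 vehicle values, at 21.4% to 56.2% of the vehicle of the same line (median 38.8%). The lowest was M41, the shallow library. Under R8, the colonoid lines were at 1521, 1507 and 2096 CP20M and the tumoroid lines at 2528, 2514 and 2475 CP20M, in the same order of lines. These were 13.5% to 23.9% of vehicle (median 19.1%), and the 3 tumoroid values lay above the 3 colonoid values.

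Under 5-FU, Txnip was at 7254, 8918 and 5937 CP20M in the colonoid lines and at 6470, 8656 and 10236 CP20M in the tumoroid lines. The values were 52.7% to 82.4% of vehicle (median 73.2%), below every vehicle library and above every R4 library. From highest to lowest mean, the organoid groups were tumoroid Ve, colonoid Ve, tumoroid 5-FU, colonoid 5-FU, tumoroid R4, colonoid R4, tumoroid R8 and colonoid R8. The ranges of neighbours in this order overlapped except at 3 steps, from the colonoid Ve to the tumoroid 5-FU group, from the colonoid 5-FU to the tumoroid R4 group and from the tumoroid R8 to the colonoid R8 group. On the log2(CP20M + 20) scale, the difference from vehicle averaged over both genotypes was -1.40 ± 0.164 (SE) for R4, -2.43 ± 0.164 for R8 and -0.53 ± 0.164 for 5-FU. Without the shallow library the R4 difference was -1.24. The median of all tested genes in the R4 comparison was itself -0.16. In that comparison 1.89% of the 11562 tested genes had a lower value than Txnip. In the R8 comparison 0.484% did, and in the 5-FU comparison 3.63%.

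In fibroblasts, the level of Txnip was again lower than vehicle in every line under every treatment, in a table scaled separately from that of the organoids. Vehicle libraries of M3, M3(2), M1(2) and M11 held 2398, 2541, 2256 and 2805 CP20M. The same lines held 1799, 2080, 1674 and 2086 CP20M under R4 and 1848, 1791, 1555 and 1872 CP20M under A1. The R4 and A1 groups overlapped each other, and neither overlapped vehicle. Txnip was at 948, 1002 and 943 CP20M under R10 in M3, M3(2) and M1(2), and at 1262, 1304, 1183 and 1014 CP20M under R4A1. The order by group mean was Ve (2500 ± 234, SD, n = 4), R4 (1910.0 ± 206, n = 4), A1 (1766 ± 145, n = 4), R4A1 (1191 ± 128, n = 4) and R10 (964 ± 32.7, n = 3). Only the R4 and A1 ranges overlapped among neighbours.

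As a share of the vehicle of the same line, the median Txnip level in fibroblasts was 74.7% under R4, 69.7% under A1, 51.8% under R4A1 and 39.5% under R10. On the log2 scale the differences from vehicle were -0.39 ± 0.096 (SE) for R4, -0.50 ± 0.096 for A1, -1.06 ± 0.096 for R4A1 and -1.35 ± 0.104 for R10. Of the 11032 tested genes, 5.84% had a lower value than Txnip under R4, 0.662% under A1, 1.46% under R4A1 and 2.02% under R10. The R4A1 log2 ratio of a line minus the sum of its R4 and A1 log2 ratios was 0.04 in M1(2), -0.13 in M3, -0.17 in M3(2) and -0.45 in M11. In 3 of 4 lines Txnip under the combination was below the level that the separate log2 ratios add up to, by most in M11. In the same order of lines the value was 0.09, -0.23, -0.16 and -0.49 for Gm15441 and -0.01, 0.07, -0.15 and 0.55 for Arrdc4. For Mlxip it was 0.37, 0.06, 0.12 and 0.1. Both separate ratios of a line use 1 vehicle library, and these values were not tested. The summed level of 6 macrophage markers also differed between the fibroblast groups, at 1158 to 5394 CP20M in vehicle, 734 to 1952 under R4, 865 to 3532 under A1, 606 to 643 under R10 and 497 to 721 under R4A1. Of these markers, Lyz2 ranged from 186 to 4214 CP20M, Ptprc from 0 to 133 and Adgre1 from 0 to 152. Their part in the level of Txnip was not tested.

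**Figure D1:**
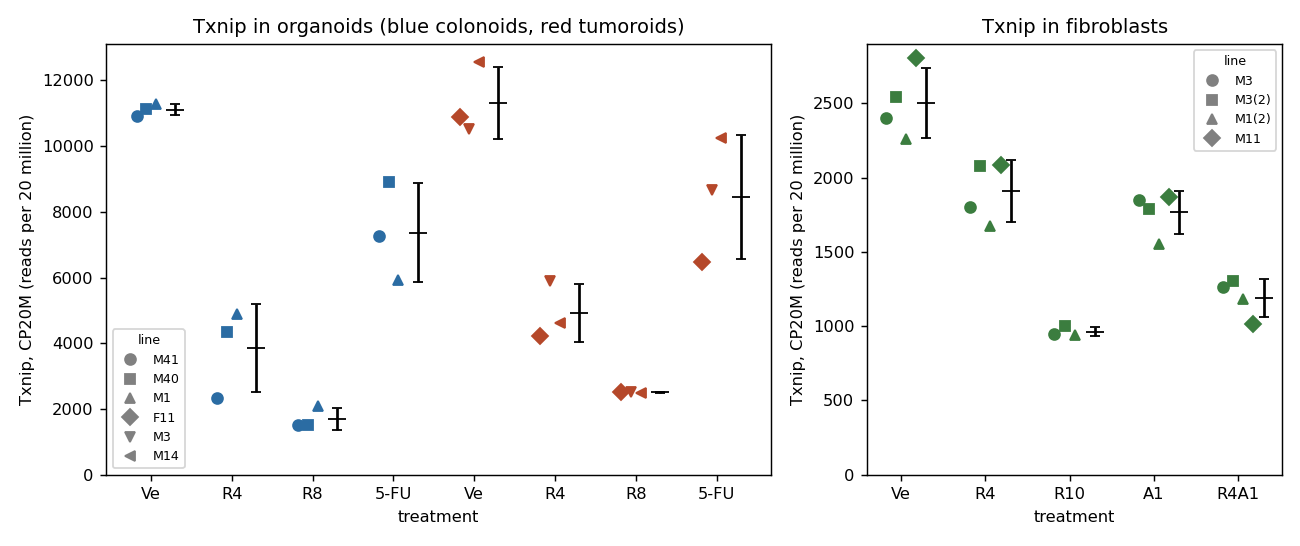
Level of Txnip in CP20M by treatment, with 1 point per library shaped by line (left, colonoids in blue and tumoroids in red; right, fibroblasts in green), and the bar giving the group mean ± SD. The 6 organoid vehicle libraries lie between 10508 and 12548 CP20M and the 6 R8 libraries between 1507 and 2528; in fibroblasts vehicle spans 2256 to 2805 and R10 943 to 1002.

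Arrdc4, the other alpha-arrestin, was lower than vehicle under R8 in all 6 organoid lines, and its R4 values were scattered. In vehicle, Arrdc4 was at 2711, 1957 and 2127 CP20M in colonoid lines M41, M40 and M1 and at 1379, 1726 and 1986 CP20M in tumoroid lines F11, M3 and M14. Under R4 the same lines held 2459, 1210 and 1223 CP20M and 702, 1940 and 1008 CP20M. Tumoroid M3 was above its own vehicle under R4, and the value of M41 rested on 63 reads. Under R8 Arrdc4 was at 878, 830 and 883 CP20M and at 520, 726 and 529 CP20M, below every vehicle library, at 26.6% to 42.4% of vehicle. Under 5-FU it was at 2383, 1638 and 1949 CP20M and at 1104, 1947 and 1735 CP20M, and these values overlapped vehicle. The log2 differences from vehicle were -0.56 ± 0.222 (SE) for R4, -1.42 ± 0.222 for R8 and -0.15 ± 0.222 for 5-FU, and that for R4 was -0.73 without the shallow library. Of the 11562 tested genes, 17.0% had a lower value than Arrdc4 under R4, 2.13% under R8 and 28.2% under 5-FU.

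In fibroblasts Arrdc4 was lower than vehicle in every line under every treatment, with R4 and A1 ranges that overlapped vehicle. Lines M3, M3(2), M1(2) and M11 held 510, 579, 629 and 468 CP20M in vehicle, 421, 445, 496 and 303 under R4, and 415, 500, 469 and 245 under A1. The first 3 of these lines held 337, 289 and 294 CP20M under R10, and all 4 held 361, 345, 365 and 236 CP20M under R4A1. Line M11 had the lowest Arrdc4 value in vehicle and in each of the 3 treatments it received. The log2 differences from vehicle were -0.39 ± 0.198 (SE) for R4, -0.45 ± 0.198 for A1, -0.72 ± 0.198 for R4A1 and -0.79 ± 0.214 for R10.

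Mlxip, which encodes the sensor MondoA itself, was not lower than vehicle under regorafenib as a group. In fibroblasts it was higher in every line under R4 and under R10. In vehicle, Mlxip was at 1193, 2211 and 1599 CP20M in colonoid lines M41, M40 and M1 and at 1812, 1396 and 1491 CP20M in tumoroid lines F11, M3 and M14. Under R8 the same lines held 1949, 2281 and 1670 CP20M and 1526, 1665 and 2074 CP20M. Mlxip under R8 was above its own vehicle in 5 of 6 lines, with overlapping ranges. Under R4 the colonoid lines held 1015, 2061 and 1960 CP20M and the tumoroid lines 1698, 1584 and 1906 CP20M, while under 5-FU they held 1732, 2279 and 1838 CP20M and 2090, 1649 and 2087 CP20M. Mlxip was above vehicle in 3 of 6 lines under R4 and in 6 of 6 lines under 5-FU, again with overlapping ranges. The log2 differences were 0.07, 0.21 and 0.28 for R4, R8 and 5-FU (SE 0.172 each), and that for R4 was 0.23 without the shallow library.

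In fibroblasts Mlxip was at 1380, 1323, 1138 and 1204 CP20M in vehicle in M3, M3(2), M1(2) and M11, and at 2096, 2072 and 1664 CP20M under R10 in the first 3 lines. All 3 R10 values lay above all 4 vehicle values, at 146% to 157% of the vehicle of the same line. Under R4 the 4 lines held 1533, 1618, 1178 and 1231 CP20M, under A1 1367, 1182, 1030 and 1024 CP20M and under R4A1 1579, 1573, 1383 and 1120 CP20M. These 3 groups overlapped vehicle, with log2 differences of 0.13 for R4, -0.14 for A1 and 0.15 for R4A1 (SE 0.134 each), against 0.61 ± 0.145 for R10. Mlxip was above its own vehicle in 4 of 4 lines under R4 and in 3 of 4 under R4A1. Under A1 it was below its own vehicle in 4 of 4.

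Mlxipl, which encodes ChREBP, stayed below the filter of 200 CP20M in at least 2 libraries in both cultures and was not tested. In vehicle it was at 64, 136 and 47 CP20M in colonoid lines M41, M40 and M1 and at 188, 40 and 54 CP20M in tumoroid lines F11, M3 and M14. Under R4 the same lines held 0, 8 and 9 CP20M and 18, 32 and 19 CP20M, below the vehicle values of every line. These rested on 0, 6 and 5 reads and on 17, 35 and 16 reads. The 0 is that of the shallow library, in which 1 read is 39.0 CP20M. Under R8 they held 8, 17 and 5 CP20M and 11, 45 and 17 CP20M, and under 5-FU 40, 60 and 19 CP20M and 164, 27 and 25 CP20M. Tumoroid M3 under R8 was above its vehicle, on 43 and 40 reads. In the 19 fibroblast libraries Mlxipl ranged from 0 to 12 CP20M, with at most 5 reads.

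Per kilobase of exon, the Txnip level in organoid vehicle was 3590.0 ± 226 CP20M per kb (SD, n = 6), against 490.0 ± 110.0 for Arrdc4, 194 ± 42.8 for Mlxip and 15.9 ± 10.8 for Mlxipl. In fibroblast vehicle the levels per kb were 801 ± 75.0 for Txnip, 135 ± 17.7 for Arrdc4, 151 ± 13.2 for Mlxip and 1.08 ± 0.821 for Mlxipl (SD, n = 4). Txnip was thus the most abundant of these 4 genes per kb in both cultures, and under R8 it was still at 675 ± 156 CP20M per kb in organoids.

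**Figure D2:**
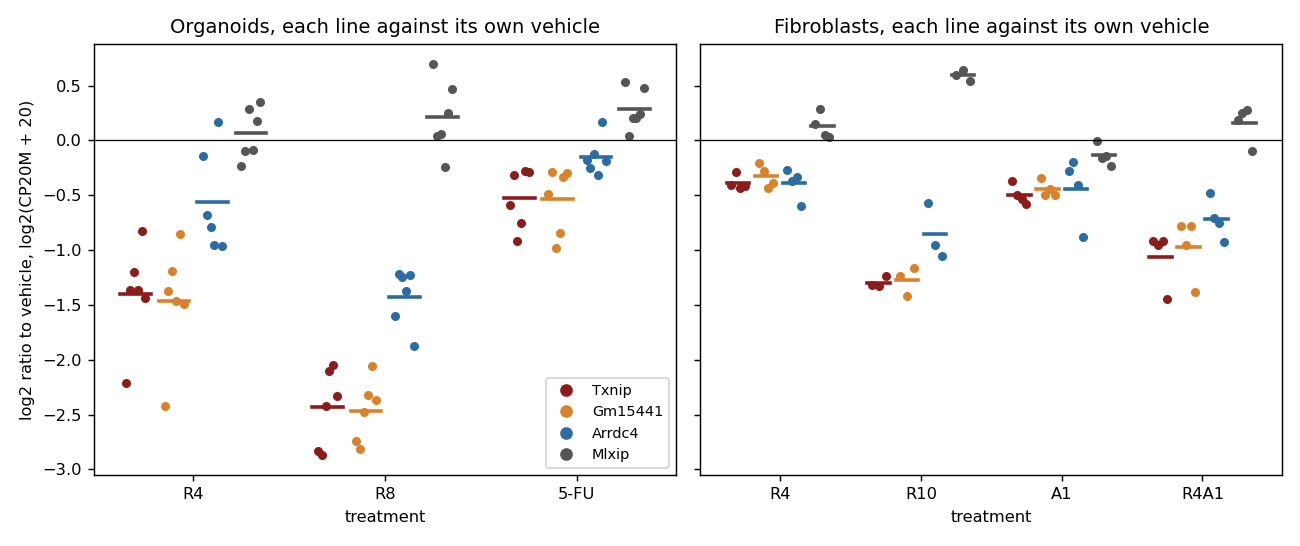
Each point is the log2 ratio of 1 line to its own vehicle on the log2(CP20M + 20) scale, by treatment, for Txnip, Gm15441, Arrdc4 and Mlxip in organoids (left, 6 lines) and fibroblasts (right, 4 lines, 3 for R10), and the short bar is the mean over lines. Txnip and Gm15441 lie below 0 in every line and treatment, and Arrdc4 lies above 0 in 1 organoid line each under R4 and 5-FU. Mlxip lies above 0 in all 6 organoid lines under 5-FU, and in all 4 fibroblast lines under R4 and all 3 under R10.

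The antisense RNA Gm15441 was read out in near-constant proportion to Txnip. Gm15441 was at 3427, 3618 and 3680 CP20M in vehicle in colonoid lines M41, M40 and M1 and at 3631, 3526 and 4108 CP20M in tumoroid lines F11, M3 and M14. Under R4 the same lines held 625, 1384 and 1605 CP20M and 1309, 1946 and 1450 CP20M, and under R8 496, 500 and 641 CP20M and 713, 833 and 776 CP20M. Under 5-FU they held 2433, 2952 and 1860 CP20M and 2025, 2804 and 3330 CP20M. Every drug value lay below every vehicle value, as for Txnip, and the log2 differences were -1.46 for R4 (-1.26 without the shallow library), -2.46 for R8 and -0.54 for 5-FU (SE 0.187 each).

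In fibroblast lines M3, M3(2), M1(2) and M11, Gm15441 was at 744, 843, 658 and 883 CP20M in vehicle, 642, 689, 483 and 669 under R4, and 584, 590, 480 and 619 under A1. It was at 303, 303 and 284 CP20M under R10 in the first 3 lines and at 425, 427, 375 and 326 CP20M under R4A1. The level of Gm15441 was 31.9% ± 1.64 of that of Txnip over the 24 organoid libraries (SD, range 26.7% to 33.6%) and 31.9% ± 1.64 over the 19 fibroblast libraries (range 28.9% to 35.7%). The lowest proportion, 26.7%, was that of the shallow library, on 16 reads of Gm15441.

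Of the 1676 exon bases of Gm15441, 606 lie inside Txnip exons, which is 36.2% of Gm15441 and 19.4% of Txnip. The other 1070 exon bases lie outside the span of Txnip altogether, and none falls in a Txnip intron. Whether reads were assigned by strand is not given in the sources used here, so reads of the 2 genes cannot be told apart over the shared bases. The values of Gm15441 are therefore uncertain, and those of Txnip to the extent of the shared reads.

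**Figure D3:**
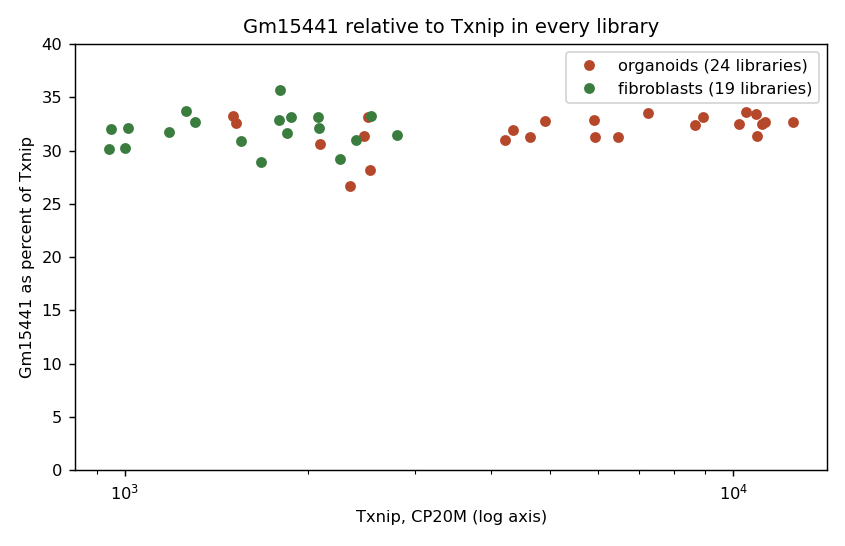
Level of Gm15441 as a percent of Txnip (vertical axis, from 0) against the level of Txnip in CP20M (log axis), with 1 point for each of the 24 organoid and 19 fibroblast libraries. Over a range of Txnip from 943 to 12548 CP20M the proportion stays between 26.7% and 35.7%.

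The tests asked whether Txnip differed by genotype, by dose or with autogramin-2 added. They were limma fits on log2(CP20M + 20) across the 11562 organoid or 11032 fibroblast genes with at least 200 CP20M in at least 2 libraries, and a gene was called at a Benjamini-Hochberg adjusted p under 0.05 with an at least 1.5-fold difference in either direction. The 8 comparisons share libraries, vehicle or drug, with those that led to the choice of Txnip. The p-values of Txnip, and of Gm15441 that overlaps it, are therefore not independent of that choice. In vehicle, Txnip did not differ detectably between tumoroids and colonoids, with a log2 difference of 0.02 (95% interval -0.46 to 0.51, adjusted p = 0.98), in a comparison where 2.06% of genes were called. The same held for Arrdc4 (-0.41, interval -1.07 to 0.24, adjusted p = 0.563), Gm15441 (0.07, adjusted p = 0.942) and Mlxip (-0.05, adjusted p = 0.95).

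No genotype effect on how Txnip responded was detected. The tumoroid minus colonoid difference in its log2 response was 0.38 (95% interval -0.31 to 1.07, adjusted p = 0.875) to R4, 0.54 (-0.14 to 1.23, adjusted p = 1.0) to R8 and 0.17 (-0.52 to 0.86, adjusted p = 1.0) to 5-FU. The intervals are wide, so a difference in response of moderate size cannot be told from none. The median of all genes for R4 was 0.19, and without the shallow library the R4 value of Txnip was 0.06. In each of these 3 comparisons limma called 0.0% of genes, with 246, 441 and 87 genes at an unadjusted p under 0.05 for R4, R8 and 5-FU, while edgeR called 0 genes in each and DESeq2 0, 3 and 1. Arrdc4, Gm15441 and Mlxip were not called in any of them either.

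The higher dose of regorafenib gave less Txnip than the lower dose in both cultures. In organoids, Txnip fell by 1.03 on the log2 scale from R4 to R8 (95% interval -1.38 to -0.69, adjusted p = 0.00696), to 48.8%, and it was lower in 6 of 6 lines. In that comparison 0.848% of genes were called, and the median of all genes was 0.11. Without 1 line at a time the value stayed between -1.16 and -0.94, but the adjusted p rose to 0.0822 without colonoid M40, 0.0994 without tumoroid M3 and 0.0734 without tumoroid M14. With all lines kept and blocked, Txnip had an adjusted p of 0.00214. Gm15441 fell by 1.00 (adjusted p = 0.0155), a call lost without any of M40, F11, M3 and M14 (adjusted p of 0.0541 to 0.137). Arrdc4 was lower under R8 in 6 of 6 lines, with a log2 difference of -0.86 ± 0.222 (SE) that missed the threshold (adjusted p = 0.0621) and passed it when lines were blocked (adjusted p = 0.00506). Mlxip was not called (0.15, adjusted p = 0.666). Without the shallow library the differences were -1.20 for Txnip and -1.21 for Gm15441 (adjusted p = 0.000365 for both), -0.70 for Arrdc4 (adjusted p = 0.0831) and -0.015 for Mlxip (adjusted p = 0.976).

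In fibroblasts, Txnip fell by 0.97 from R4 to R10 (95% interval -1.19 to -0.75, adjusted p = 0.000557), to 51.2%, and was lower in 3 of 3 lines, in a comparison where 0.145% of genes were called. Without line M3(2) the value was -0.95 and the adjusted p 0.114. With all lines kept and blocked, the log2 difference was -0.952 and the adjusted p 1.76e-05. Gm15441 fell by 1.00 (adjusted p = 0.00359), a call lost without M3 (adjusted p = 0.0754) or M3(2) (adjusted p = 0.217). Arrdc4 (-0.40, adjusted p = 0.485) and Mlxip (0.48, adjusted p = 0.153) were not called. Blocked on line, Arrdc4 had an adjusted p of 0.00455, at a log2 difference of -0.54 that is under the 1.5-fold limit. Line M11 had no R10 library here and entered through its R4 library alone.

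The 2 drugs given to organoids also differed, at doses of unlike drugs that cannot be matched. The log2 difference of R8 minus 5-FU was -1.91 ± 0.164 (SE) for Txnip (adjusted p = 1.66e-06), -1.93 ± 0.187 for Gm15441 (adjusted p = 5.07e-06) and -1.27 ± 0.222 for Arrdc4 (adjusted p = 0.00095), and each gene was lower under R8 in 6 of 6 lines. In this comparison 8.78% of genes were called. Mlxip was not called (-0.07, adjusted p = 0.855).

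Txnip was lower in fibroblasts given autogramin-2 with regorafenib than in those given regorafenib alone. From R4 to R4A1 it fell by 0.67 (95% interval -0.88 to -0.47, adjusted p = 0.0293), to 62.7%, and was lower in 4 of 4 lines, at 48.6% to 70.7% of the R4 level. Txnip was the only gene called by limma in this comparison, 0.00906% of those tested. Since Txnip was chosen for its low level in drug conditions, this count is not independent of that choice. The call did not hold in a single one of the 4 fits that left out a line, where the log2 difference was -0.73 without M3 (adjusted p = 0.723), -0.67 without M3(2) (0.968), -0.73 without M1(2) (0.126) and -0.55 without M11 (0.177). The call was also lost with TMM scaling (-0.62, adjusted p = 0.0948) and with edgeR (-0.66, adjusted p = 0.096). With lines blocked, Txnip had an adjusted p of 0.000777, and that of Gm15441, which was not called without the block (-0.65, adjusted p = 0.268), was 0.00389. With the block 158 genes were called. Arrdc4 (-0.33, adjusted p = 0.904) and Mlxip (0.02, adjusted p = 1.0) were not called.

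**Figure D4:**
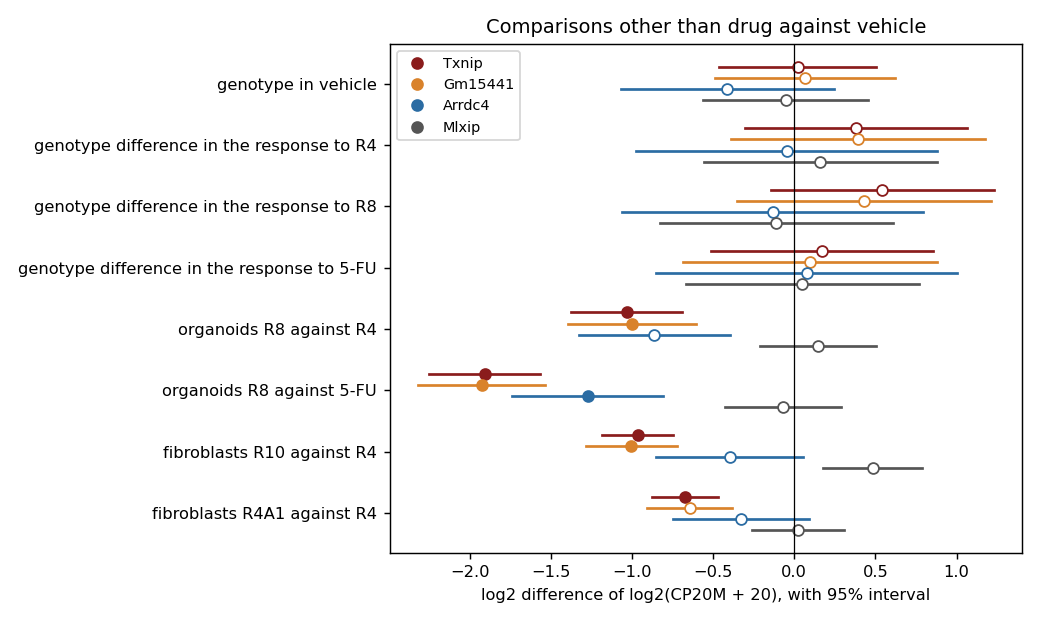
Log2 differences of log2(CP20M + 20) for Txnip, Gm15441, Arrdc4 and Mlxip in the 8 tested comparisons, with 95% intervals from the limma fit, where a filled circle marks a called gene. Txnip is called in both dose comparisons, against 5-FU and with autogramin-2 added (-1.03, -0.97, -1.91 and -0.67), and in none of the 4 genotype comparisons.

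The partners of MondoA were read as the Max and Mlx network, the family of basic helix-loop-helix factors that share the partners Mlx or Max and E-box sites. Of its 11 listed genes other than Mlxip and Mlxipl, all 11 were tested in organoids and 9 in fibroblasts. Under R4 in organoids 1 rose (Mycn) and 3 fell (Mxd1, Mlx and Myc), where 5.76% of all genes were called higher and 9.15% lower, and the list's median log2 difference was -0.33 against -0.16 for all genes. Under R8, 1 rose (Mycn) and 5 fell (Mnt, Mxd1, Myc, Mycl and Mxd4), against 8.87% of all genes called higher and 8.87% called lower, with medians of -0.50 and -0.05. Mycn, a proto-oncogene of the Myc family, rose by 2.12 ± 0.279 (SE) under R4 (adjusted p = 5.92e-05). It rose by 2.60 under R8 (adjusted p = 3.27e-06) and by 2.26 under 5-FU (adjusted p = 0.000328). From vehicle to R8 it went from 80.0 ± 32.7 to 781 ± 172 CP20M in colonoids and from 44.0 ± 20.7 to 268 ± 98.3 in tumoroids (SD, n = 3). Its vehicle libraries lay below the filter level, at 52 to 116 CP20M in colonoids and 22 to 63 in tumoroids. Mycn thus passed the filter only through drug-treated libraries. The size of its rise depended on the fit, at 1.39 to 2.54 under R4, 1.81 to 2.98 under R8 and 1.52 to 2.69 under 5-FU. All 14 alternative fits kept each call. Mycn was the 1 gene of the list called under 5-FU, where 1.53% of all genes were called higher and 0.822% lower.

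Mxd1, which competes with Myc for Max, fell by 0.90 under R4 (adjusted p = 0.0276) and fell by 2.21 under R8 (adjusted p = 1.78e-05), from 8461 ± 3959 to 917 ± 262 CP20M in colonoids and from 1826 ± 872 to 686 ± 84.5 in tumoroids (SD, n = 3). Its R4 call was lost without colonoid M41 (adjusted p = 0.0543), colonoid M1 (0.0548), tumoroid M3 (0.0817) or tumoroid M14 (0.131). Myc fell by 0.59 under R4 (adjusted p = 0.0311) and fell by 1.18 under R8 (adjusted p = 0.000153) in organoids. The R4 value of Myc was -0.40 without the shallow library (adjusted p = 0.0536), where Mycl was called lower instead, and the call was also lost without tumoroid F11, M3 or M14 (adjusted p of 0.0649 to 0.138). Over all alternative fits the R4 call was lost in 10 of 14 for Myc and in 6 of 14 for Mxd1. In fibroblasts Myc fell by 0.83 under R10 (adjusted p = 0.00186), from 650.0 ± 70.0 (SD, n = 4) to 357 ± 33.9 CP20M (n = 3), and was the 1 gene of the list called in any fibroblast comparison, beside 3.25% of all genes called higher and 4.09% lower under R10.

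The list of MondoA and ChREBP target genes, mostly enzymes of fructose use, glycolysis and fat synthesis, did not move in 1 direction. Of 24 genes, 15 were tested in organoids. Fasn, Pfkfb3 and Tkfc rose and Scd1 and Klf10 fell under R4, while Fasn, Pfkfb3 and Me1 rose and Scd1 and Klf10 fell under R8. These are 3 higher and 2 lower of 15 in each. Of all genes, 5.76% were called higher and 9.15% lower under R4, and 8.87% higher and 8.87% lower under R8. The list's median was -0.25 under R4 and 0.32 under R8, against -0.16 and -0.05 for all genes. The R4 call of Tkfc was lost without the shallow library. In fibroblasts 13 were tested, and Scd1 fell under R4, beside 0.671% of all genes called higher and 0.354% lower. Scd1 and Elovl6 fell under R10, and Scd1 under R4A1, where 0.734% and 0.925% of all genes were called higher and lower. With the block 2, 4 and 2 genes of the list fell under R4, R10 and R4A1, in fits that called 796, 1519 and 771 of the 11032 genes. None rose.

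Scd1, the desaturase that makes monounsaturated fatty acids, fell by 1.54 ± 0.326 (SE) under R4 (adjusted p = 0.0026) and fell by 1.40 under R8 (adjusted p = 0.00351) in organoids, and its 5-FU difference was 0.00 (adjusted p = 0.998). Colonoid Scd1 was at 1623 ± 358 CP20M in vehicle, 345 ± 169 under R4 and 510.0 ± 292 under R8 (SD, n = 3). Tumoroid Scd1 was at 2267 ± 1081, 1244 ± 533 and 1064 ± 383 CP20M in the same order, and tumoroid R4 and vehicle values overlapped. In fibroblasts Scd1 fell by 0.59 under R4 (adjusted p = 0.02), 1.12 under R10 (adjusted p = 6.26e-05) and 0.60 under R4A1 (adjusted p = 0.0163), from 3377 ± 288 CP20M (SD, n = 4) in vehicle to 1545 ± 227 (n = 3) under R10. The R4 and R4A1 calls of Scd1 lie at the 1.5-fold limit and were lost without any of M3, M3(2) and M1(2) (adjusted p of 0.107 to 0.257). The R4A1 call was also lost without M11 (-0.58, adjusted p = 0.0168). Over all alternative fits the R4 call of Scd1 was lost in 6 of 11 and the R4A1 call in 8 of 11.

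Klf10, a transcription factor induced by TGF-beta and glucose, in organoids fell by 1.15 under R4 (adjusted p = 0.000469) and fell by 1.48 under R8 (adjusted p = 2.2e-05), from 2050.0 ± 284 to 782 ± 87.4 CP20M in colonoids and from 1871 ± 421 to 598 ± 57.2 in tumoroids (SD, n = 3). Pfkfb3, which makes the activator of phosphofructokinase, rose by 1.36 under R4 (adjusted p = 8.59e-05) and 0.68 under R8 (adjusted p = 0.0112). The R8 call of Pfkfb3 was lost without colonoid M40 (0.66, adjusted p = 0.0568). Me1, malic enzyme, rose by 1.18 under R8 (adjusted p = 0.00703), a call lost without tumoroid F11 (0.94, adjusted p = 0.0588), and by 1.18 under 5-FU (adjusted p = 0.0405), a call lost in each of the 5 fits without M40, M1, F11, M3 or M14 (adjusted p of 0.0913 to 0.205). Over all alternative fits its 5-FU call was lost in 7 of 14.

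Genes with the hexamer pair of the Txnip promoter were called in both directions. Beside Txnip, 131 gene symbols carried such a pair, and 49 were tested in organoids. Under R4, 6.12% of the 49 were called higher and 16.3% lower, with a median of -0.15 against -0.16 for all genes. Under R8, 8.16% were called higher and 10.2% lower. In fibroblasts under R10, 6.52% of 46 were called higher and 4.35% lower. These shares were read against the background shares given above and were not tested.

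Among 20 genes of glucose uptake and upper glycolysis, 17 were tested in each culture. These transporters and enzymes take up glucose and carry it to pyruvate and the pentose phosphates. In organoids Pfkm rose and Gpi1 fell under R4, Pfkm and Hk1 rose and Slc5a1 fell under R8, and none was called under 5-FU (Pfkp fell with the block and without the shallow library). That is 1 higher and 1 lower of 17 under R4 (5.76% and 9.15% of all genes) and 2 higher and 1 lower under R8 (8.87% each way). Without the shallow library the R4 call of Gpi1 was lost, and Slc5a1 and Pfkl were called lower under R4. Pfkm, the muscle-type subunit of phosphofructokinase, rose by 0.76 ± 0.159 (SE) under R4 (adjusted p = 0.00259) and by 1.57 under R8 (adjusted p = 1.79e-06), from 313 ± 95 to 1050.0 ± 132 CP20M in colonoids and from 495 ± 95.2 to 1354 ± 132 in tumoroids (SD, n = 3). In fibroblasts Pgd, G6pdx and Pkm fell under R10, 3 of 17 where 4.09% of all genes fell, and G6pdx fell under R4A1, 1 of 17 where 0.925% fell. G6pdx, the entry enzyme of the pentose phosphate pathway, fell by 0.83 under R10 (adjusted p = 0.000204) and fell by 0.60 under R4A1 (adjusted p = 0.00494), a call lost without M3, M3(2) or M1(2) (adjusted p of 0.0952 to 0.121). Over all alternative fits its R4A1 call was lost in 7 of 11. The list's median stayed between -0.36 and 0.01 in the 7 drug comparisons.

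The thioredoxin system, whose central protein Txnip binds, was tested for all 13 listed genes. Thioredoxin itself, Txn1, fell by 0.72 ± 0.182 (SE) under R4 (adjusted p = 0.00868) and fell by 0.63 under R8 (adjusted p = 0.0155) in organoids, and fell by 0.60 under R10 (adjusted p = 0.0351) in fibroblasts. The R8 call was lost without colonoid M41 (-0.47), colonoid M40 (adjusted p = 0.0784), tumoroid M3 (0.0638) or tumoroid M14 (0.0705). The R10 call was lost without M3, M3(2) or M1(2) (adjusted p of 0.178 to 0.251). Over all alternative fits the R8 call was lost in 5 of 14 and the R10 call in 8 of 11. Colonoid Txn1 was at 11096 ± 3824 CP20M in vehicle and 4934 ± 937 under R8, and tumoroid Txn1 at 4818 ± 984 and 4406 ± 985 (SD, n = 3), with ranges that overlapped in tumoroids. Prdx3 also fell under R4 in organoids, which made 2 lower of 13 beside 9.15% of all genes, but without the shallow library that call was lost and Prdx2 was called higher under R4. Under R8 Glrx was called higher without that library. Prdx2, a peroxiredoxin, rose by 0.68 under R8 (adjusted p = 0.00454), which was 0.53 without colonoid M1, and by 0.75 under 5-FU (adjusted p = 0.0173), a call lost without M1, M3 or M14 (adjusted p of 0.114 to 0.179).

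In fibroblasts Srxn1, which repairs oxidised peroxiredoxins, fell by 1.02 under R4 (adjusted p = 0.000212), fell by 1.27 under R10 (adjusted p = 6.74e-06) and fell by 0.78 under R4A1 (adjusted p = 0.00138). Prdx1 fell by 0.90 under R10 (adjusted p = 7.24e-05) and fell by 0.65 under R4A1 (adjusted p = 0.00295). Without M3 the R4A1 calls of both were lost (adjusted p of 0.0661 for Srxn1 and 0.0955 for Prdx1). Under R10, 3 of 13 genes fell where 4.09% of all genes did, and under R4A1 2 of 13 where 0.925% did. Txnrd3 rose under R10, a call that the block did not keep, and Txnrd1 fell with it. No gene of the list was called under A1, where limma called 0.0% of all genes higher and 0.0% lower, with 120 genes at an unadjusted p under 0.05 and 0 genes called by edgeR or DESeq2.

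Of 13 regulators and partners of the Txnip protein, 12 were tested in each culture. In organoids 2 of 12 fell under both R4 and R8, where 9.15% and 8.87% of all genes fell. Prkab1, a regulatory subunit of AMP-activated kinase, which marks Txnip for degradation, fell by 0.78 ± 0.136 (SE) under R4 (adjusted p = 0.000633) and fell by 1.23 under R8 (adjusted p = 4.36e-06), and Cdkn1b, the cell cycle inhibitor p27, fell by 0.87 (adjusted p = 0.00338) and by 1.02 (adjusted p = 0.000561). With the block Prkaa1 and Prkaa2 fell as well under R4 and Hif1a rose under R8. In fibroblasts Prkaa2, a catalytic subunit of the same kinase, rose by 0.90 ± 0.22 (SE) under R4 (adjusted p = 0.0474), 1.75 under R10 (adjusted p = 0.000204) and 0.96 under R4A1 (adjusted p = 0.0283). It was the 1 gene of 12 called in each, where 0.671%, 3.25% and 0.734% of all genes were called higher. Its R4 and R4A1 calls were lost without M3, M3(2) or M1(2) (adjusted p of 0.106 to 0.325). Over all alternative fits its R4 call was lost in 6 of 11. In organoids its difference was -0.80 under R4 (adjusted p = 0.06) and 0.03 under R8 (adjusted p = 0.962). With the block Foxo1 also rose under R4 in fibroblasts.

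Of 4 other alpha-arrestins, 3 were tested in organoids and 2 in fibroblasts. Arrdc1 fell under R8, 1 of 3 where 8.87% of all genes fell, and Arrdc1 and Arrdc2 were lower under R8 than under 5-FU, a comparison in which 8.78% of all genes were called in either direction. None was called under R4 or 5-FU in organoids or in any fibroblast comparison. The median log2 difference from vehicle was -0.43 under R4 and -0.51 under R8 in organoids, against -0.16 and -0.05 for all genes, and -0.26 under R10 in fibroblasts, against -0.04.

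**Figure D5:**
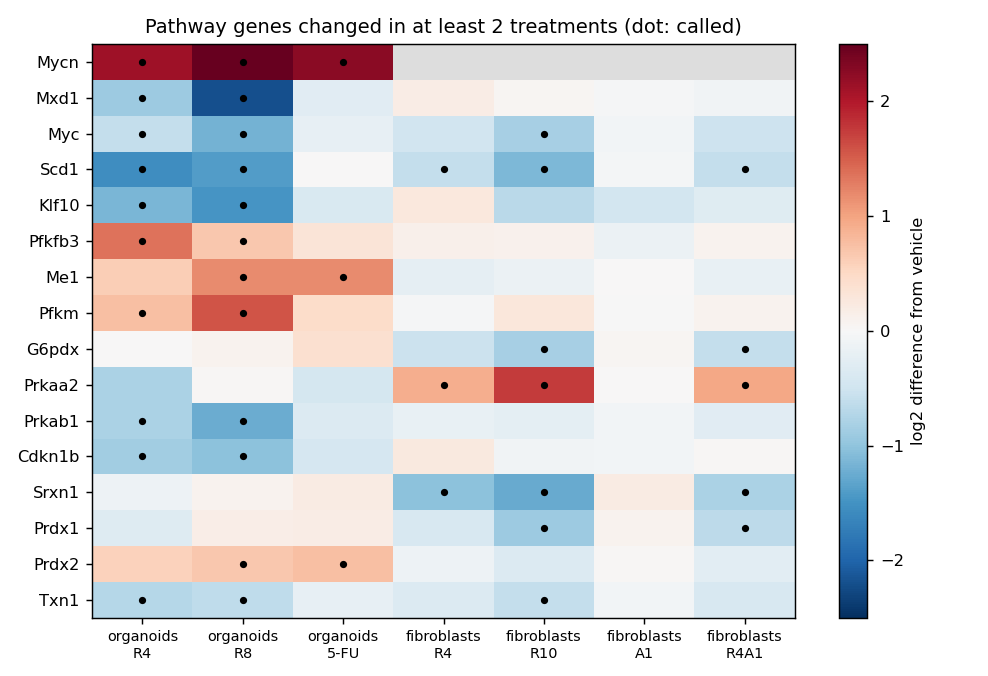
Log2 difference from vehicle (colour, clipped at 2.5 in either direction) of the listed genes called in the same direction in at least 2 of the 7 drug comparisons, with a dot where the gene was called and grey where it was not tested. Mycn is higher in all 3 organoid comparisons (2.12, 2.60 and 2.26), while Srxn1 (-1.02, -1.27 and -0.78) and Prkaa2 (0.90, 1.75 and 0.96) are called in fibroblasts and not in organoids.

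Some markers of the cultured cells were called, and more of the fibroblast markers with the line block. Of 7 epithelial markers, all tested in organoids, Cdx2 was the 1 called under R4 and under R8 (with the block Krt20 also fell under R8). That is 1 of 7 lower in each, where 9.15% and 8.87% of all genes fell. The median of the 7 was 0.00 under R4 and -0.22 under R8, against -0.16 and -0.05 for all genes. Cdx2, an intestinal identity factor, in organoids fell by 1.88 ± 0.372 (SE) under R4 (adjusted p = 0.00161) and fell by 1.90 under R8 (adjusted p = 0.000907). Pdgfra, a fibroblast marker and a target of regorafenib, in fibroblasts fell by 2.51 ± 0.607 (SE) under R4 (adjusted p = 0.0459), fell by 3.03 under R10 (adjusted p = 0.0055) and fell by 2.49 under R4A1 (adjusted p = 0.0362), calls that were each lost without M3(2) or M1(2) (adjusted p of 0.0736 to 0.357). Over all alternative fits these calls of Pdgfra were lost in 5, 2 and 5 of 11. Of the 7 fibroblast markers Pdgfra was the 1 called under R4 and R4A1, and Col3a1 fell as well under R10. That is 1, 2 and 1 of 7 lower under R4, R10 and R4A1, where 0.354%, 4.09% and 0.925% of all genes fell. The median of the 7 was -0.27 under R4, -0.45 under R10 and -0.23 under R4A1. With the block Col3a1, Col1a2 and Pdgfra fell in all 3 comparisons, while Thy1 rose in all 3 and Dcn rose under R4. The block fits called 796, 1519 and 771 of the 11032 genes under R4, R10 and R4A1. Lyz2, 1 of 2 macrophage markers tested in fibroblasts, fell by 2.60 under R10 (adjusted p = 0.00806) and fell by 2.58 under R4A1 (adjusted p = 0.0196), calls lost without M3 or M1(2) (adjusted p of 0.0875 to 0.247). Their part in the level of Txnip was not tested.

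The genes whose levels most followed Txnip over the 24 organoid libraries, by Pearson's r of log2(CP20M + 20), were Gm15441 (0.998), Prkab1 (0.95), Egr1 (0.941), Tcp11l2 (0.926) and Nsmf (0.925). These libraries share 6 lines and 4 treatments, so r describes mainly the treatment groups. Egr1, an immediate early gene downstream of growth factor and Erk signaling, went from 3762 ± 697 CP20M in colonoid vehicle to 726 ± 551 under R4 and 176 ± 83.7 under R8 (SD, n = 3). With the mean of each line subtracted, 4 of the 5 stayed in the first 5, and without the shallow library 2 did. Arrdc4 had an r of 0.699 (0.819 without the shallow library and 0.891 with line means subtracted), Mlx 0.279 and Mlxip -0.065.

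Over the 19 fibroblast libraries the first 5 were Gm15441 (0.99), Hist1h3d (0.921), Hnrnpm (0.912), Slfn2 (0.897) and Hgf (0.89). Hgf, hepatocyte growth factor, was at 606 ± 126 CP20M in vehicle (SD, n = 4), 359 ± 114 under R4 and 110.0 ± 13.6 under R10 (n = 3). Slfn2, which keeps blood cells quiescent, was at 368 ± 89.0 CP20M in vehicle and 47.7 ± 16 under R10. With line means subtracted only Gm15441 stayed in the first 5. Arrdc4 had an r of 0.66 (0.908 with line means subtracted) and Mlxip -0.514. Gm15441 was the 1 gene among the first 5 in both cultures, and its reads cannot be told from those of Txnip over the shared exon bases.

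The genes around Txnip on chromosome 3 did not all change with it. The nearest tested gene after it, Polr3gl, a subunit of RNA polymerase III that begins 15989 bases away, was called in none of the 15 comparisons. Lix1l, 39266 bases after Txnip, rose in organoids by 1.00 ± 0.23 (SE) under R4 (adjusted p = 0.00548) and 1.05 under R8 (adjusted p = 0.00263), and was not called in fibroblasts. Before Txnip the nearest tested gene in organoids was Terc, the RNA of telomerase, 143098 bases away. Terc fell by 1.31 under R4 (adjusted p = 0.0377), fell by 2.19 under R8 (adjusted p = 0.00112) and fell by 2.12 from 5-FU to R8 (adjusted p = 0.00357). The histone gene Hist2h2bb, 287825 bases before Txnip, in organoids fell by 1.24 under R4 (adjusted p = 0.0309) and fell by 1.25 under R8 (adjusted p = 0.0263), and in fibroblasts fell by 2.04 under R10 (adjusted p = 0.0115). It overlaps Gm42743, which fell by 2.09 under R10 (adjusted p = 0.0122), so the reads of these 2 are uncertain.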

How the data were processed

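RNA was sequenced from 24 organoid and 19 fibroblast libraries. Per the submitters' processing notes, reads were handled with Trimmomatic 0.36, STAR 2.5.3a (GRCm38) and HTSeq 0.9.1. The deposited signal is CP20M: the authors scaled gene counts to 20000000 per library and rounded up. The values of a library fall on steps of whole reads, so they were taken as not scaled by gene length. The labels and the study's methods name different library kits for the organoids, and counting by strand is not given in the sources used here. The study ran edgeR quasi-likelihood tests on the scaled values. Scaled values are not counts, so limma 3.58.1 (R 4.3.3, trend) on log2(CP20M + 20) was used here, with group means, genes reaching 200 CP20M, which is 10 CPM, in 2 or more libraries, and Benjamini-Hochberg adjustment over all of them.

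Whole reads were recovered from the smallest steps between values (99.79% to 100.0% of values whole in the organoid libraries and 99.6% to 99.94% in the fibroblasts). On these reads edgeR 4.0.16 (quasi-likelihood) called 168 genes between R8 and R4 in organoids, and DESeq2 1.42.0 called 335. Fits were tested on simulated data. Other alternatives were pseudocounts of 2 and 100, no filter, TMM scaling, Txnip summed with Gm15441, leaving out each line or the shallow library, and a line block. Libraries of 1 line come from the same animal's culture, and their deviations from the group means correlated by 0.5 on average in organoids (0.01 to 0.89, 36 pairs) and 0.72 in fibroblasts (0.34 to 0.95, 36 pairs), against -0.25 and -0.23 between lines. No replicate pair agreed within sampling noise (chi-square per gene of at least 8.18). Replicates are lines, so p-values of the main fit measure the spread between lines within groups. They leave out the pairing of treatments within a line, which the line block takes into account.

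Groups follow the labels. The titles of 3 tumoroid 5-FU libraries say colonoid, and 1 fibroblast R4A1 title lacks its line. These were placed by library name and genotype label. The genes and lists were chosen with earlier results of these data known. Named were the 5 genes, list genes called in at least 2 of 7 drug comparisons in 1 direction (at most 4 a list by the largest change), the 5 genes most correlated with Txnip in each culture and the nearest 2 tested genes on each side. Other list genes behind a count of 5 or fewer were named after their values were seen.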

Additional observations from a re-analysis of the deposited data

Results flagged for a closer look

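Of 20 groups of 4 libraries tested (5 genes by 4 fibroblast groups), 2 held a library set apart from the other 3 by Dixon's criterion, which chance meets in about 1 of 20 groups. Both were the fibroblast R4A1 library of line M11, in which Arrdc4 was at 236 CP20M against 345 to 365 in the other lines, and Mlxipl was at 2 CP20M, which is 1 read, against 0 in the others. Where the other 3 libraries are at 0, any value above 0 meets the criterion. The rate of 1 of 20 therefore does not hold for Mlxipl.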

How the results depend on the processing

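Of 113 recomputations of Txnip in the 8 tested comparisons, 98 kept direction and side of the threshold, 11 lost the call and 4 turned. For the other genes 284 of 315 kept both, and against vehicle every recomputed value of Txnip kept its direction. The cause of each change was not tested, and a fit that leaves out a line also has fewer samples. The difference of Txnip between genotypes in vehicle was near 0 and turned to -0.003 with TMM scaling, -0.017 with edgeR and -0.032 with DESeq2 (-0.055 to 0.073 without 1 line). From R4 to R4A1, Txnip lost its call with TMM scaling (-0.62), with edgeR (-0.66), when summed with Gm15441 (-0.673) and without any 1 line (-0.732 to -0.555). Without 1 line, Txnip was -1.159 to -0.935 from R4 to R8, -1.01 to -0.921 from R4 to R10 and -1.384 to -1.296 for R10 against vehicle, which was -1.285 with a pseudocount of 100.

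Differences near 0 turned in other genes. Without the shallow library, the genotype difference in the R4 response was -0.016 for Gm15441, 0.288 for Arrdc4 and -0.165 for Mlxip (-0.022 with DESeq2), and Mlxip from R4 to R8 was -0.015. Without 1 line, the genotype difference in response of Arrdc4 spanned -0.422 to 0.153 for R4, -0.264 to 0.057 for R8 and -0.067 to 0.177 for 5-FU, and that of Gm15441 -0.097 to 0.272 for 5-FU. Mlxip spanned -0.265 to 0.106 for R8 and -0.058 to 0.186 for 5-FU in that difference, -0.269 to 0.17 between genotypes, -0.109 to 0.007 from 5-FU to R8, -0.014 to 0.275 from R4 to R8 and -0.044 to 0.077 from R4 to R4A1.

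Counts of called genes depended more on the fit. With the replicate block (line), the paired fit, 387 genes in place of 98 were called from R4 to R8, 664 in place of 16 from R4 to R10 and 158 in place of 1 from R4 to R4A1, and against vehicle 584 in place of 272 for 5-FU, 796 in place of 113 for R4, 1519 in place of 809 for R10 and 771 in place of 183 for R4A1. DESeq2 called 771 genes between genotypes (edgeR 373, limma 238, and 785 without the shallow library), 335 from R4 to R8 (edgeR 168, 57 with no filter), 1528 in place of 1015 from 5-FU to R8, 201 from R4 to R10 and 6 from R4 to R4A1. Calls of named list genes held in 508 of 598 recomputations, and 26 of 47 calls held in every one. No paired fit was possible between genotypes in vehicle. Txnip rested on 60 reads in the shallow library, which limits the R4 values of colonoids. The shallow library also entered the spread of each gene, and so the p-values of every organoid comparison. Without it the R8 minus 5-FU difference of Txnip stayed at -1.908, with a limma adjusted p of 3.59e-08 in place of 1.66e-06.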
